A study of Sus scrofa with 12 samples.

Results

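The genes described here are SST, GZMA and CELSR1, which were higher in aortic valve interstitial cells of the pig (Sus scrofa) at the first of 3 calcification stages than at the later untreated ones. They were taken from the authors' gene table by symbol, which gave 4 of its 22861 gene IDs, since GZMA stands on 2 IDs. The names were picked for the fall of their levels between the untreated stages, so the stage values below are a description with no test, and the libraries treated with KPT are the ones that the choice did not use. Valve interstitial cells resemble fibroblasts and make the matrix of the leaflet. All 12 cultures grew in DMEM on glass, which the labels give as the calcification stimulus, for up to 12 days. The groups of 3 biological replicates each were Stage 1 (day 5), Stage 2 (day 8), Stage 3 with KPT and Stage 3 with the solvent DMSO. KPT and DMSO were given at Stage 3. The labels used here name neither the dose of KPT, its full name nor the length of exposure. KPT code names belong to a class of drugs that block XPO1, the nuclear export receptor.

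SST encodes somatostatin, a secreted peptide hormone that endocrine cells and neurons cut from a longer precursor, and that lowers cyclic AMP in its target cells through inhibitory G-protein-coupled receptors. Its own transcription is known to rise with cyclic AMP through CREB. GZMA encodes granzyme A, a serine protease with trypsin-like specificity that cytotoxic T cells and natural killer cells store in granules and release, with perforin, into target cells. CELSR1 encodes a large cadherin of the adhesion G-protein-coupled receptor family that works with Frizzled and Van Gogh proteins in planar cell polarity, the alignment of cells within a sheet, and in the mouse it takes part in forming lymphatic valves.

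The deposited values were RPKM, reads scaled by exon length and by a library total, and whole reads could be recovered from them. Library totals ran from 13188023 to 24724019, and the reads summed over genes from 23287593 to 43293744 per library. All 4 IDs were among the 13046 genes with an RPKM of at least 1 in at least 3 libraries, the filter for testing. SST lies on the minus strand of chromosome 13 at 134620966 to 134622407, in coordinates of the authors' table, whose genome build no label or header used here names. The GZMA IDs lie on the plus strand of chromosome 16 at 36365989 to 36376137 (ENSSSCG00000016902, called upstream here) and at 36385658 to 36393941 (ENSSSCG00000016903, downstream), with 9520 bases between them. CELSR1 lies on the minus strand of chromosome 5 at 588811 to 596477, and its row holds 11 exons with 1586 bases in all, a short stretch for a gene known to be large. No other gene of the table overlapped any of these rows, whose values are over annotated exons. Nothing in the labels says whether replicates came from separate animals, so p-values measure the spread between cultures. In bulk RNA, fewer cells that express a gene and less of its RNA per cell cannot be told apart.

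The 3 genes were lost in different steps. SST was at its lowest by Stage 2. GZMA was at an intermediate level at Stage 2 and at its lowest at Stage 3 with DMSO. CELSR1 was lower by smaller steps and kept 44.0% of its Stage 1 level at Stage 3 with DMSO. Under KPT, SST and both GZMA IDs stood above Stage 3 with DMSO but well below Stage 1, while CELSR1 stood lower still. The name "lost after Stage 1" therefore fits SST at both later untreated stages, GZMA at the last one and CELSR1 at neither. The test of KPT against DMSO was limma on log2(RPKM + 1), with Benjamini-Hochberg adjustment over the 13046 genes, and a gene was called at an adjusted p under 0.05. Of the 4 IDs, 3 were called higher and 1 lower in KPT cultures, against a background of 30.5% of all tested genes called higher, 29.5% called lower and so 60.0% called in either direction. The same 3 IDs had all KPT libraries above all DMSO libraries, as 33.7% of tested genes did, and CELSR1 had them all below, as 31.5% did. Calls in both directions were thus common in this contrast. The DMSO libraries of this test were also used in choosing the genes.

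**Figure D1:**
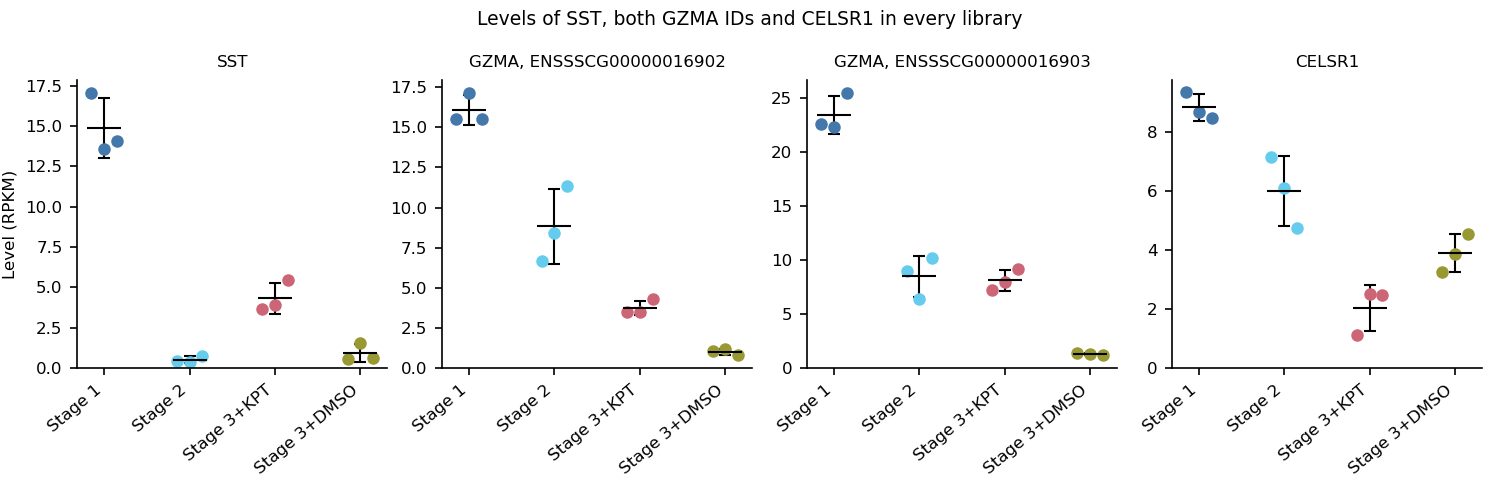
Level in RPKM (linear axes from 0) of SST, both GZMA IDs and CELSR1 in each of the 12 libraries (points), with the group mean as a horizontal line and the SD over 3 libraries as an error bar. SST and GZMA points under KPT lie above all DMSO points and below all Stage 1 points, while CELSR1 points under KPT are the lowest of their panel.

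SST was expressed at Stage 1 with 17.0, 13.6 and 14.1 RPKM in the 3 libraries. At Stage 2 it had 0.446, 0.335 and 0.744 RPKM. In Stage 3 cultures it had 3.63, 3.92 and 5.44 RPKM with KPT, against 0.579, 1.55 and 0.626 RPKM with DMSO. All KPT libraries thus stood above all DMSO and Stage 2 libraries and below all Stage 1 libraries, while DMSO and Stage 2 overlapped. The order of the means was Stage 1, KPT, DMSO and Stage 2.

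The Stage 2 mean of SST, 0.508 ± 0.212 RPKM, was 3.41% of the Stage 1 mean of 14.9 ± 1.87 RPKM (SD, n = 3 each), a 29.3-fold lower level. Of all 13046 tested genes, SST had the lowest log2 fold change at Stage 2 against Stage 1, at -3.40, which is the contrast it was picked from. The 3 Stage 2 libraries held 17 SST reads in all, which gives a level of 0.300 to 0.824 RPKM by an exact 95% Poisson interval that covers counting error only. KPT cultures averaged 4.33 ± 0.971 RPKM and DMSO cultures 0.917 ± 0.546 RPKM (SD, n = 3 each), a ratio of 4.72. On the log2(RPKM + 1) scale the change was 1.50 (SE 0.20, limma adjusted p = 3.09e-05), and limma-voom on the recovered reads, which adds a smaller offset to low values, gave 2.38. Under KPT the mean reached 29.1% of the Stage 1 mean, against 6.16% under DMSO, so that it covered 24.4% of the distance between the DMSO and Stage 1 means.

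SST has 2 exons in the authors' table, of 244 and 366 bases from the 5′ end. The first exon took 43.9% of its reads at Stage 1, 35.3% of the few reads at Stage 2, 43.4% under KPT and 44.1% under DMSO. These shares pool the 3 libraries of a group, and where the gene was low the libraries differed. With DMSO the SD was 1.41 RPKM over the first exon and 0.0535 RPKM over the second. In Stage 2 replicate 2, only 1 of the 2 exons had reads. Whether the spread over the exons was the same at low levels can therefore not be told from so few reads. Over the second exon all KPT libraries lay above all DMSO libraries, with means of 4.27 RPKM with KPT and 0.851 RPKM with DMSO. Over the first exon they overlapped, at means of 4.42 RPKM with KPT and 1.02 RPKM with DMSO.

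Both GZMA IDs were lower at each later untreated stage. The upstream ID had 15.5, 17.1 and 15.5 RPKM at Stage 1 and 6.68, 8.44 and 11.3 RPKM at Stage 2. In Stage 3 cultures it had 3.49, 3.48 and 4.27 RPKM with KPT, against 1.07, 1.17 and 0.806 RPKM with DMSO. No 2 groups overlapped on this ID, and their order was Stage 1, Stage 2, KPT and DMSO.

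The Stage 2 mean of upstream GZMA was 8.82 ± 2.36 RPKM, 54.9% of the Stage 1 mean of 16.1 ± 0.929 RPKM (SD, n = 3 each). Its KPT mean was 3.75 ± 0.453 RPKM and its DMSO mean 1.01 ± 0.187 RPKM (SD, n = 3 each), a ratio of 3.70. The change was 1.24 on the log2(RPKM + 1) scale (SE 0.16, limma adjusted p = 1.92e-05), and 1.93 with limma-voom on the recovered reads. KPT cultures held 23.3% of the Stage 1 level and DMSO cultures 6.31%, and the KPT mean covered 18.2% of the distance between the DMSO and Stage 1 means.

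The downstream GZMA ID had 22.6, 22.3 and 25.5 RPKM at Stage 1 and 8.95, 6.41 and 10.1 RPKM at Stage 2. In Stage 3 cultures it had 7.23, 7.97 and 9.17 RPKM with KPT, against 1.35, 1.27 and 1.22 RPKM with DMSO. KPT cultures here overlapped Stage 2 cultures, and both stood between Stage 1 and DMSO. The Stage 2 mean was 8.50 ± 1.91 RPKM, 36.3% of the Stage 1 mean of 23.5 ± 1.75 RPKM (SD, n = 3 each).

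The KPT mean of downstream GZMA was 8.12 ± 0.982 RPKM and the DMSO mean 1.28 ± 0.0664 RPKM (SD, n = 3 each), a ratio of 6.33. The change was 1.99 on the log2(RPKM + 1) scale (SE 0.14, limma adjusted p = 8.57e-08), and 2.68 with limma-voom on the recovered reads. The KPT level was 34.6% of Stage 1, against 5.47% with DMSO, and covered 30.9% of the distance between the DMSO and Stage 1 means. The labels and files used here do not say whether the 2 IDs are separate genes or parts of 1 locus, and reads that match both may have been split either way.

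The 2 GZMA IDs did not keep the same proportion in every library. The RPKM of the downstream ID over that of the upstream ID was 1.45, 1.30 and 1.64 at Stage 1 and 1.34, 0.760 and 0.894 at Stage 2. It was 2.07, 2.29 and 2.15 with KPT, against 1.27, 1.09 and 1.52 with DMSO. All 3 KPT ratios were thus above the other 9, and Stage 1 overlapped both Stage 2 and DMSO. The mean ratio was 2.17 ± 0.111 with KPT and 1.29 ± 0.215 with DMSO (SD, n = 3 each), a difference of 0.76 on the log2 scale with an exact two-sided permutation p of 0.1, the smallest that 3 against 3 allows. Each DMSO ratio rests on 28 to 39 upstream and 21 to 22 downstream reads, which limits its precision. For Stage 2 against Stage 1 the log2 difference was -0.59, and for DMSO against Stage 1 it was -0.19, both given as a description with no test. Over exons 2 to 4 alone the ratios were 1.62, 2.52 and 1.93 with KPT, against 0.965, 0.908 and 1.02 with DMSO, a log2 difference of 1.04, an alternative added after seeing the data.

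**Figure D2:**
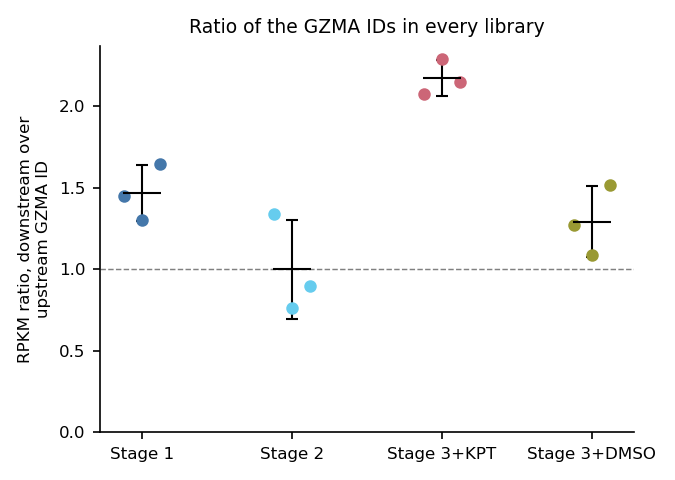
Ratio of downstream to upstream GZMA RPKM in each of the 12 libraries (points, linear axis from 0), with the group mean as a horizontal line, the SD over 3 libraries as an error bar and a dashed line at a ratio of 1. The 3 libraries with KPT have ratios of 2.07, 2.29 and 2.15, above the 1.27, 1.09 and 1.52 with DMSO and above every Stage 1 and Stage 2 library.

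Each GZMA ID has 5 exons. On the downstream ID every exon had reads in every library, and over each of the 5 exons all KPT libraries were above all DMSO libraries. Its highest exon at Stage 1 was the third, with 32.6 RPKM, which had 8.76 RPKM with KPT and 2.19 RPKM with DMSO. On the upstream ID, KPT libraries were all above DMSO libraries over exons 3, 4 and 5, and overlapped them over exon 2. Exon 1 of that ID had 2 reads over the 3 Stage 1 libraries and 0 reads in the other groups. Whether the transcripts lacked this exon or its reads were not counted there was not tested. Its last exon, of 979 bases, took 53.1% of the reads at Stage 1, 61.2% with KPT and 49.0% with DMSO.

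CELSR1 had 9.37, 8.70 and 8.49 RPKM at Stage 1 and 7.16, 6.12 and 4.77 RPKM at Stage 2. In Stage 3 cultures it had 1.13, 2.50 and 2.47 RPKM with KPT, against 3.25, 3.88 and 4.54 RPKM with DMSO. No 2 groups overlapped, and the order ran from Stage 1 over Stage 2 and DMSO down to KPT, the reverse of the KPT and DMSO order seen for SST and GZMA. The Stage 2 mean was 6.01 ± 1.20 RPKM, 67.9% of the Stage 1 mean of 8.85 ± 0.462 RPKM (SD, n = 3 each).

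CELSR1 averaged 2.03 ± 0.786 RPKM with KPT and 3.89 ± 0.649 RPKM with DMSO (SD, n = 3 each), a ratio of 0.523. The change was -0.72 on the log2(RPKM + 1) scale (SE 0.19, limma adjusted p = 0.00609). KPT cultures held 23.0% of the Stage 1 level, against 44.0% with DMSO. KPT replicate 1 was the lowest library, with 25 of the 210 CELSR1 reads of its group, and without it the change was -0.48 (limma adjusted p = 0.0229). Of the 11 exons, 5 had all KPT libraries below all DMSO libraries, none had them above, and 6 overlapped. Those 5 included exon 1, with 1.83 RPKM under KPT and 5.06 RPKM under DMSO, and exon 5, with 1.72 RPKM under KPT and 4.78 RPKM under DMSO. Exon 9 was also among them, with 1.51 RPKM under KPT and 3.79 RPKM under DMSO.

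**Figure D3:**
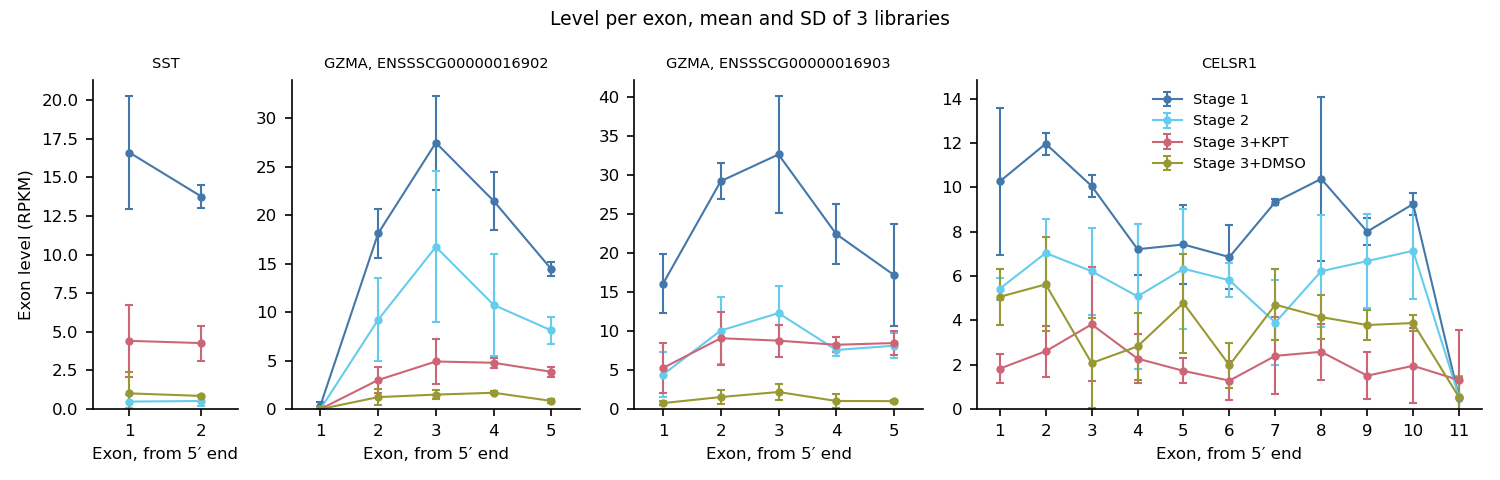
Mean RPKM of each annotated exon of SST, upstream GZMA, downstream GZMA and CELSR1, numbered from the 5′ end, with 1 line per group (error bars are SD over 3 libraries). The KPT line lies between the Stage 1 and DMSO lines over both SST exons, over all downstream GZMA exons and over upstream GZMA exons 2 to 5, and below the DMSO line over 9 of the 11 CELSR1 exons.

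The levels of the 4 IDs moved together only in part over the 12 libraries. The GZMA pair had a Pearson r of 0.94 on log2(RPKM + 1), SST had r of 0.58 with upstream and 0.74 with downstream GZMA, and CELSR1 had r of 0.29 with SST, 0.64 with upstream and 0.48 with downstream GZMA. These values describe libraries that share groups and treatment. The genes with a symbol whose pattern was most like each ID, by the same r over the 12 libraries, were different for each. For SST they were led by DDX46, a helicase of pre-mRNA splicing, with r of 0.99 and means of 49.9, 26.4, 35.8 and 25.8 RPKM at Stage 1, Stage 2, KPT and DMSO, and by the kinase STK10, YAE1D1, the mRNA decay factor PATL1 and PPP2R1B, a scaffold subunit of protein phosphatase PP2A, with r of 0.96 to 0.97. Their ratios between Stage 1 and Stage 2 were smaller than that of SST. For upstream GZMA they were AK4, SLC41A1, INSIG1, IVNS1ABP and BHLHE40, with r of 0.96 to 0.97.

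For downstream GZMA the most similar patterns were those of both IDs of DHRS9, a short-chain dehydrogenase of retinoid and steroid metabolism, of SPRED3 and of LIPG (endothelial lipase), with r of 0.96. DHRS9 had 7.75 RPKM with KPT, 1.39 RPKM with DMSO and 13.5 RPKM at Stage 1 on its more abundant ID. For CELSR1 they were RUSC1, the cell cycle regulator E2F4, the actin-binding protein ACTN4, SHB and SEC14L1, with r of 0.97 to 0.98. All 5 had their lowest group mean with KPT, as CELSR1 did. With 4 groups behind 12 points, many genes can show a high r.

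SST and GZMA belonged to small sets of genes whose untreated levels were this far below Stage 1. Of the tested genes with a Stage 1 mean of at least 1 RPKM, 28 had means of at most 0.25 of that level at both Stage 2 and Stage 3 with DMSO, and SST was among them. The 28 were 15 protein-coding genes, 9 snoRNAs, 2 snRNAs and 2 miRNAs, with 2 IDs of identical values. In KPT cultures 14 of them were called higher than in DMSO cultures, 0 lower and 14 neither, beside the 30.5% of all tested genes that were called higher. Because low DMSO values chose the set, nothing is read from that share. The KPT mean was at least 0.5 of the Stage 1 mean for 15 of the 28 and above it for 10, whereas for SST it was 29.1%.

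Among the 15 protein-coding genes of that set, 7 were called higher with KPT by limma and none lower, beside 30.5% and 29.5% of all tested genes, and again low DMSO values chose the genes. Those that passed their Stage 1 level were NPPB, DIO2, EREG, MMP1 and NPY, of which the first, natriuretic peptide B, had 49.0 RPKM with KPT, 0.242 RPKM with DMSO and 1.67 RPKM at Stage 1. BATF3, a transcription factor with 2 IDs in the set, and DAPK2, a cell death-associated kinase, were not called with KPT. The BATF3 IDs had 0.547 and 0.708 RPKM with KPT, against 0.482 and 0.167 RPKM with DMSO (limma adjusted p = 0.849 and 0.0653), and 3.70 and 3.43 RPKM at Stage 1. DAPK2 had 0.868 RPKM with KPT, against 0.684 RPKM with DMSO (limma adjusted p = 0.405), and 3.90 RPKM at Stage 1.

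NPY, which encodes neuropeptide Y, a secreted peptide like somatostatin, was singled out after its values were seen. It had 1.78, 3.66 and 2.87 RPKM at Stage 1 and 0.491, 0 and 0.182 RPKM at Stage 2. In Stage 3 cultures it had 4.51, 6.10 and 4.23 RPKM with KPT, against 0, 0.717 and 0.517 RPKM with DMSO. KPT libraries were all above DMSO libraries and also above all Stage 1 libraries, and the change against DMSO was 2.10 on the log2(RPKM + 1) scale (SE 0.25, limma adjusted p = 1.01e-05). NPY therefore passed its Stage 1 level with KPT, at 179% of it, where SST did not.

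With the threshold applied to Stage 3 with DMSO alone, 102 genes were included, among them SST and both GZMA IDs but not CELSR1. Of these, 45 were called higher with KPT, 10 lower and 47 neither, beside 30.5% and 29.5% of all tested genes called higher and lower, and low DMSO values chose this set too. The median level was 32.6% of Stage 1 with KPT and 17.3% with DMSO, and 44 of the 102 had a KPT mean of at least 0.5 of the Stage 1 mean. The GZMA and SST values of 23.3% to 34.6% were thus near the median of the set. Genes of the set that were called lower with KPT included the muscle intermediate filament gene DES, with 0.454 RPKM with KPT and 6.17 RPKM with DMSO, and ANKRD1, with 3.97 RPKM with KPT and 18.8 RPKM with DMSO.

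**Figure D4:**
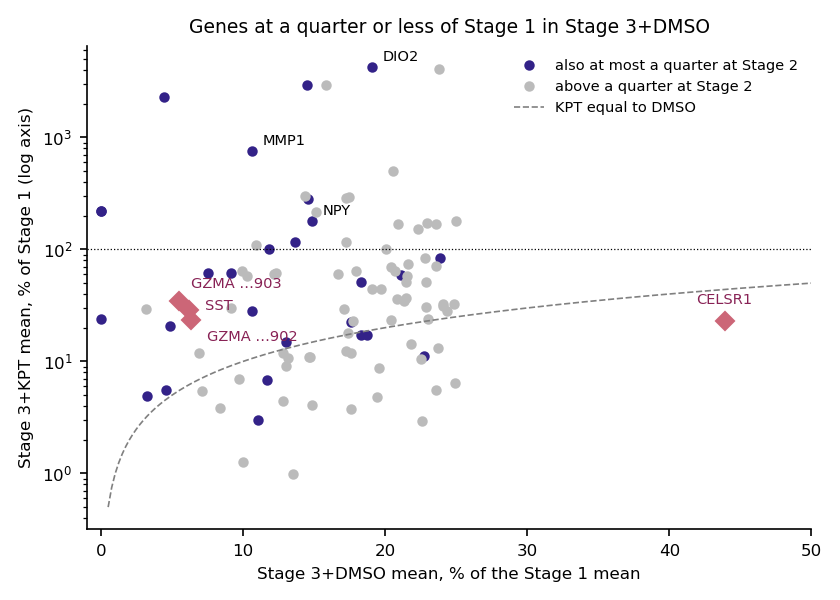
Mean level with KPT (y axis, log scale) against mean level with DMSO (x axis, linear), each as a percentage of the Stage 1 mean, for 100 of the 102 genes with a DMSO mean of at most 0.25 of the Stage 1 mean, leaving out 2 with a KPT mean of 0, and for CELSR1 (diamond on the right). Dark points are also at most 0.25 of Stage 1 at Stage 2. The SST and GZMA diamonds lie above the dashed curve of equal levels and below the dotted line at the Stage 1 level of 100%, CELSR1 lies below the curve, and MMP1, DIO2 and NPY lie above the dotted line.

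Genes that act with somatostatin differed in level and in direction with KPT. Of its receptors, SSTR1 passed the filter for testing, and it rose to 3.61 ± 0.455 RPKM with KPT, against 1.26 ± 0.268 RPKM with DMSO (SD, n = 3 each, log2 change 1.03, limma adjusted p = 0.00079). SSTR1 had 1.07 RPKM at Stage 1 and 1.12 RPKM at Stage 2, a log2 change of 0.06 (limma adjusted p = 0.845). SSTR2 and SSTR3 had 0 reads in all 12 libraries, and no row named SSTR4 or SSTR5 was found. The related peptide gene CORT had 2 reads over the 12 libraries.

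Of the enzymes that process peptide precursors, PCSK5 rose to 95.1 ± 9.44 RPKM with KPT, against 44.4 ± 4.98 RPKM with DMSO (SD, n = 3 each, log2 change 1.08, limma adjusted p = 7.58e-07). PCSK5 had 69.8 RPKM at Stage 1 and 55.0 RPKM at Stage 2. Like SST it was thus lower at both later untreated stages and higher with KPT, but its KPT mean was above Stage 1. PCSK7 and FURIN were not called with KPT (limma adjusted p = 0.324 and 0.513). PCSK6 stands on 2 IDs, and the 1 used here fell to 41.6 ± 2.14 RPKM with KPT, against 77.4 ± 4.84 RPKM with DMSO (SD, n = 3 each, log2 change -0.88, limma adjusted p = 9.97e-08). CPE, the carboxypeptidase that trims peptide hormones, fell as well, to 2.83 RPKM with KPT, against 8.90 RPKM with DMSO (log2 change -1.33, limma adjusted p = 0.000219). PCSK2, a main convertase of endocrine cells, had 0 reads. In all, 6 of the 13 genes listed for the somatostatin system were tested, and with KPT 2 were called higher and 2 lower, with a median log2 change of 0.01, beside 0.02 over all tested genes. At Stage 2 against Stage 1, 0 of the 6 were called higher and 2 lower, PCSK5 and PCSK6, beside 16.3% of all tested genes called higher, 24.4% called lower and 40.7% in either direction.

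Genes of cyclic AMP signalling, the pathway known to drive SST transcription, were split with KPT. Of 19 tested, 8 were called higher and 8 lower by limma, with a median log2 change of 0.30, beside 30.5% higher, 29.5% lower and a median of 0.02 over all tested genes. The phosphodiesterases PDE4B and PDE4D, which break down cyclic AMP, rose with KPT by 2.76 and 2.26 on the log2 scale, to 137 and 12.8 RPKM, against 19.9 and 1.92 RPKM with DMSO (limma adjusted p = 1.32e-08 and 1.09e-07). The protein kinase A inhibitors PKIA and PKIG fell, with log2 changes of -2.08 and -1.28 (limma adjusted p = 1.47e-08 and 9.55e-08). CREB1 itself had 8.61 RPKM with KPT and 10.9 RPKM with DMSO, a log2 change of -0.32 (limma adjusted p = 0.0429) that was not called after quantile normalization (limma adjusted p = 0.0506).

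Of the 12 listed granule genes with a row, 8 had few or no reads. GZMB, GZMH, GNLY and FASLG had 0 reads in all 12 libraries, GZMK had 2 reads, the pore former perforin (PRF1) had 10, NKG7 had 4 and CTSW had 5, and no row named GZMM was found. Of the 4 tested granule genes, 2 were called higher with KPT and 0 lower, beside 30.5% and 29.5% of all tested genes. SRGN, the granule proteoglycan serglycin, rose to 780 ± 32.5 RPKM with KPT, against 57.3 ± 4.43 RPKM with DMSO (SD, n = 3 each, log2 change 3.75, limma adjusted p = 2.14e-12). CTSC, the peptidase that activates granzymes, rose to 267 ± 12.4 RPKM with KPT, against 120 ± 14.6 RPKM with DMSO (SD, n = 3 each, log2 change 1.15, limma adjusted p = 1.23e-07).

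SERPINB1 and SERPINB9, inhibitors of granule proteases, were the remaining tested genes of that list and were not called with KPT, at log2 changes of -0.06 and 0.15 (limma adjusted p = 0.554 and 0.479). At Stage 2 against Stage 1 all 4 were called lower by limma, from -0.36 for SERPINB1 to -0.81 for SERPINB9, beside 24.4% of all tested genes. Of 7 tested genes known as granzyme A substrates or members of the SET complex that it attacks, 1 was called higher with KPT and 4 lower by limma, beside 30.5% and 29.5% of all tested genes. APEX1, a DNA repair endonuclease, rose to 162 RPKM with KPT, against 104 RPKM with DMSO (log2 change 0.64, limma adjusted p = 5.89e-06). HMGB2 fell to 50.1 RPKM with KPT, against 116 RPKM with DMSO (log2 change -1.20, limma adjusted p = 1.45e-06), and NME1, the nuclease of the complex, fell by 1.05 on the log2 scale (limma adjusted p = 3.99e-07).

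Markers of the cells that normally express these genes were checked beside them. Of 20 lymphocyte and natural killer markers, 19 had a row, 3 passed the filter and 6 had 0 reads in all libraries, among them CD2, CD8B, EOMES and TBX21. The pan-leukocyte gene PTPRC had 3 reads and the T cell receptor subunit CD3E had 18 reads over the 12 libraries. The markers summed to 9.77 to 10.6 RPKM with KPT and 2.52 to 2.70 RPKM with DMSO, and to 3.92 to 5.56 RPKM at Stage 1 and 2.21 to 3.53 RPKM at Stage 2. The sum was highest with KPT, where CCL5 made up the largest part of it.

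The 3 markers that passed the filter were CCL5, CD247 and IL2RB. The chemokine gene CCL5 had 5.54 RPKM with KPT, 0.591 RPKM with DMSO, 0.246 RPKM at Stage 2 and 0.287 RPKM at Stage 1, and it would not have passed the filter without the KPT libraries. The interleukin receptor subunit IL2RB had 0.910 RPKM with KPT, 0.522 RPKM with DMSO, 1.02 RPKM at Stage 2 and 1.66 RPKM at Stage 1 (log2 change with KPT 0.32, limma adjusted p = 0.149), and it was called higher with KPT after quantile normalization (limma adjusted p = 0.0308). CD247 had 3.39 RPKM with KPT, 1.34 RPKM with DMSO, 1.56 RPKM at Stage 2 and 2.69 RPKM at Stage 1 (log2 change with KPT 0.91, limma adjusted p = 0.000243). CD247 and IL2RB thus had higher means at Stage 1 than at either later untreated group and higher means with KPT than with DMSO, as GZMA had. Whether these genes and GZMA came from the same cells was not tested.

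Of 16 markers of endocrine cells, 13 had a row and 4 passed the filter. CHGA, NEUROD1 and PPY had 0 reads, while CHGB, a secretory granule protein, had 3.10 RPKM with KPT, 0.324 RPKM with DMSO and 0.312 RPKM at Stage 1, and passed the filter only through the KPT libraries. With KPT 2 of the 4 were called higher, CHGB and ENO2, and 2 lower, UCHL1 and HHEX, beside 30.5% and 29.5% of all tested genes. Nothing is read from the call of CHGB, since the KPT libraries alone brought it into the test. No epithelial marker passed the filter and 1 cardiomyocyte marker did, TNNI3. Of 3 myeloid and mast cell markers tested none was called with KPT, beside 60.0% of all tested genes called in either direction. Of these markers, KIT had 122 RPKM at Stage 1, 60.6 RPKM at Stage 2, 50.5 RPKM with KPT and 43.2 RPKM with DMSO. CD68 was also lower at both later untreated stages than at Stage 1, while CD14 was higher. Of 6 tested endothelial markers 1 was called higher and 3 lower with KPT, beside 30.5% and 29.5% of all tested genes, with none higher after quantile normalization.

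Whether the 10 listed markers of valve interstitial cells set them apart from other fibroblasts was not tested. All 10 markers passed the filter, which can be met by 1 group alone. PDGFRA and PDGFRB stand on 2 IDs each, of which 1 was used. The means of the 10 markers were above the filter level in every group, the lowest being 65.1 RPKM, for PDGFRA with DMSO. They summed to 39008 to 39335 RPKM at Stage 1 and 40497 to 41764 RPKM at Stage 2. The sum was 19182 to 19831 RPKM with KPT and 34432 to 39049 RPKM with DMSO. With KPT 3 of the 10 were called higher and 6 lower, led by POSTN at 1.43 and ACTA2 at -1.91 on the log2 scale (limma adjusted p = 1.85e-06 and 1.01e-08), beside 30.5% and 29.5% of all tested genes. After quantile normalization 3 were called higher and 5 lower, without COL3A1 (limma adjusted p = 0.118).

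The planar cell polarity genes, the pathway of CELSR1, were called in both directions. Of 20 tested, 6 were called higher and 7 lower with KPT by limma, beside 30.5% and 29.5% of all tested genes. Their median log2 change was -0.09, and 0.00 after quantile normalization with 6 higher and 6 lower. CELSR3, the other family member with a row, was low, with 1.32 ± 0.177 RPKM with KPT and 0.791 ± 0.0909 RPKM with DMSO (SD, n = 3 each). It passed the filter only through the KPT libraries, and no row named CELSR2 was found. WNT5A, a ligand of the pathway, rose to 26.3 ± 1.84 RPKM with KPT, against 1.49 ± 0.352 RPKM with DMSO (SD, n = 3 each, log2 change 3.46, limma adjusted p = 1.92e-10). Among the partner genes PRICKLE3 rose by 1.04 and FZD3 by 0.48 (limma adjusted p = 4.15e-07 and 0.0315). PRICKLE2 and FZD6 fell, with log2 changes of -0.32 and -0.31 (limma adjusted p = 0.00771 and 0.00859).

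DAAM1, a formin that binds Dishevelled, fell to 5.40 RPKM with KPT, against 14.2 RPKM with DMSO (log2 change -1.26, limma adjusted p = 4.76e-07). VANGL1, the Van Gogh partner that was expressed, had 8.07 and 7.95 RPKM in the same groups and was not called (limma adjusted p = 0.883). At Stage 2 against Stage 1, 4 of the 20 were called higher and 4 lower by limma, beside 16.3% and 24.4% of all tested genes. After median-ratio rescaling or quantile normalization 6 were called higher and 3 lower.

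The adhesion G-protein-coupled receptors, the wider family of CELSR1, were mostly lower with KPT. Of 12 tested, 8 were called lower and 1 higher by limma, with a median log2 change of -0.80, beside 0.02 over all tested genes and 29.5% of them called lower. ADGRD1 fell to 0.372 ± 0.163 RPKM with KPT, against 8.62 ± 1.57 RPKM with DMSO (SD, n = 3 each, log2 change -2.80, limma adjusted p = 2.65e-09). ADGRB2 and ADGRG6 followed with -1.74 and -1.53 (limma adjusted p = 1.35e-06 and 2.33e-08). The receptor called higher was ADGRL2, by 0.30 (limma adjusted p = 0.0165). At Stage 2 against Stage 1, 4 of the 12 were called higher and 3 lower, beside 16.3% and 24.4% of all tested genes. Stage 2 levels of ADGRB2, ADGRD1 and ADGRL1 were above Stage 1, unlike those of CELSR1. ADGRG1, ADGRG2 and ADGRG6 were lower at Stage 2 than at Stage 1 and lowest with KPT, as CELSR1 was. ADGRG1 had the same order of group means as CELSR1, with 9.71 RPKM at Stage 1, 7.40 RPKM at Stage 2, 6.37 RPKM with DMSO and 2.97 RPKM with KPT.

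**Figure D5:**
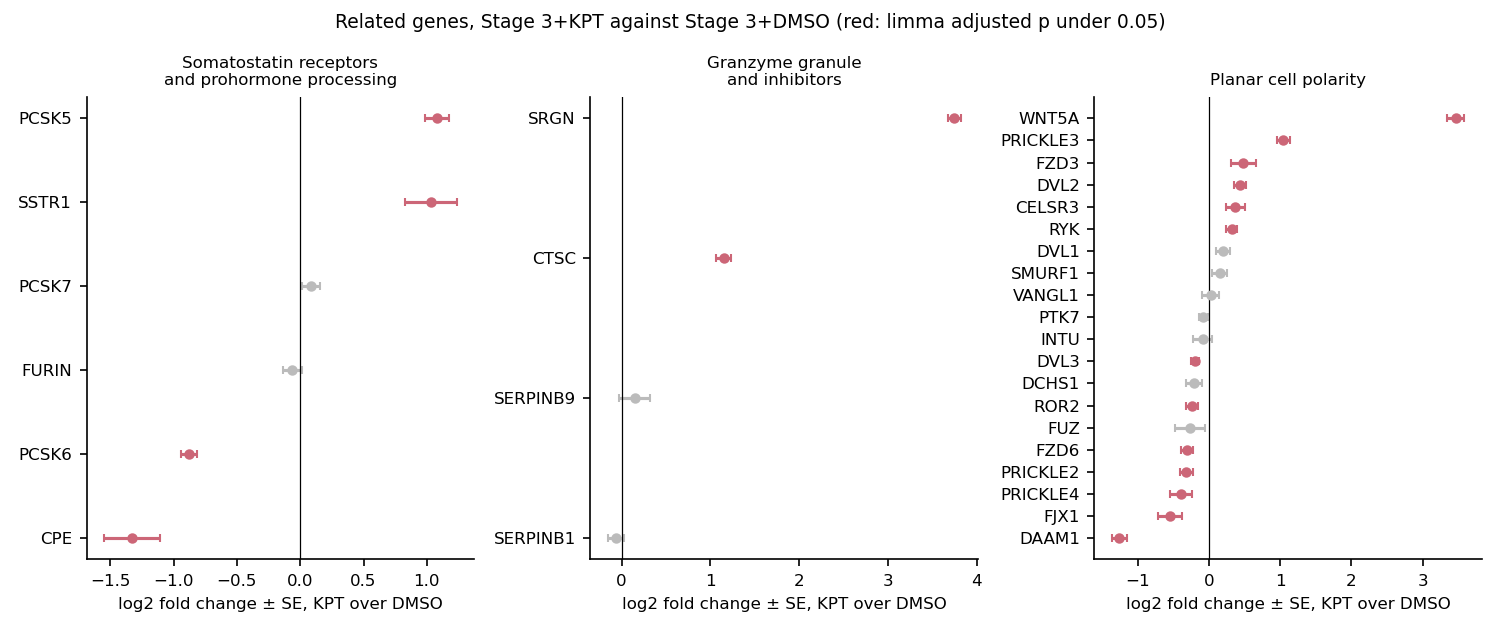
Log2 fold change with KPT over DMSO (x axes, log2(RPKM + 1) scale, bars are SE) for the tested genes of somatostatin processing and reception, of granzyme granules and of planar cell polarity, with 1 row per gene and red for a limma adjusted p under 0.05. SRGN and WNT5A stand far right at 3.75 and 3.46, while the other planar cell polarity genes lie on both sides of 0, from 1.04 for PRICKLE3 to -1.26 for DAAM1.

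The nearest tested genes on each side of the 4 IDs were taken by a rule added after their values were seen. ESM1 was lower at both later untreated stages and higher with KPT than with DMSO, as GZMA was. This gene, which encodes a secreted proteoglycan and lies 69542 bases below upstream GZMA, had 258 ± 9.80 RPKM with KPT and 155 ± 45.2 RPKM with DMSO, and 218 RPKM at Stage 2 and 367 RPKM at Stage 1 (SD, n = 3, log2 change with KPT 0.77, limma adjusted p = 0.000581). GPX8, on the other side of GZMA, was not called, with 189 RPKM with KPT and 193 RPKM with DMSO (limma adjusted p = 0.813).

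The transcriptional repressor BCL6, 38495 bases from SST, rose to 114 RPKM with KPT, against 47.3 RPKM with DMSO (log2 change 1.25, limma adjusted p = 9.76e-10), but did not fall with SST at Stage 2, with 86.6 RPKM against 73.1 RPKM at Stage 1. MASP1 and RFC4, on the other side of SST, had log2 changes with KPT of 1.03 and -0.55 (limma adjusted p = 2.23e-07 and 0.00837). An unnamed gene beyond BCL6 was not called (limma adjusted p = 0.0693). TRMU, 5572 bases from CELSR1, rose with KPT where CELSR1 fell, to 7.54 RPKM, against 3.96 RPKM with DMSO (log2 change 0.80, limma adjusted p = 0.000148). GTSE1, a cell cycle gene 24709 bases from CELSR1, fell to 0.332 RPKM with KPT, against 7.99 RPKM with DMSO (log2 change -2.75, limma adjusted p = 1.53e-10), and had 4.16 RPKM at Stage 2 and 11.4 RPKM at Stage 1. On the other side of CELSR1, ATXN10 and an unnamed gene, 212817 and 269916 bases away, were also called lower with KPT. Their log2 changes were -0.64 and -0.55 (limma adjusted p = 5.48e-07 and 1.39e-06). Thus 3 of the 4 nearest genes of CELSR1 were called lower with KPT, beside 29.5% of all tested genes. With 4 genes, nothing is read from that share.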

How the data were processed

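RNA of 12 cultures was sequenced from libraries made with a stranded mRNA kit from 500 ng of total RNA each, per the labels' protocols. TopHat2 2.1.0 was used, per the submitters' processing notes. The labels and headers used here name no counter, strand setting, genome build or annotation. Gene and exon tables of the authors, deposited in RPKM, hold 22861 genes and 189618 exons. The gene table itself named 15203 genes, a table of IDs 1715 more and Entrez numbers 627 more. RPKM values times exon length and library total gave whole reads, within 0.001, for 100% of values. Reads summed over genes were 1.75 to 1.81 times the library total, for a reason that no source used here states, so counting intervals may be too narrow. Low levels rest on few reads (7 to 19 per DMSO library for SST), which limits their precision.

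All libraries entered 1 limma 3.58.1 fit (R 4.3.3) of log2(RPKM + 1), with a coefficient per group and an expression trend. Genes with RPKM of at least 1 in at least 3 libraries were tested (13046, of which 10779 had a symbol), and called at an adjusted p under 0.05 (Benjamini-Hochberg). This scale understates changes of low genes. The script was tested on simulated data. Named genes are the 4 IDs, the 5 genes with a symbol most correlated with each, and the most changed called members of each list, with somatostatin receptors, granzymes and CELSR genes always included and some left out for length. A similar gene of downstream GZMA is not reported here. The genes and lists were chosen with earlier results of these data known. Also tried were pseudocounts of 0.5 and 0.1, dropping the filter or raising it to 5 RPKM, quantile normalization, median-ratio rescaling, fitting only the groups compared, fitting with no trend or with a replicate block, limma-voom on recovered reads (8101 genes called with KPT, against 7831) and leaving out each library. Sequences were not used here.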

Additional observations from a re-analysis of the deposited data

How the results depend on the processing

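The log2 changes of all 4 IDs with KPT against DMSO kept their direction and an adjusted p under 0.05 (limma) in the 10 other settings and in each of the 12 fits that left out a library. They ran from 1.46 to 2.38 for SST, 1.20 to 1.93 for upstream GZMA, 1.95 to 2.68 for downstream GZMA and -0.97 to -0.57 for CELSR1, and without each library in turn from 1.35 to 1.72, 1.16 to 1.29, 1.91 to 2.07 and -0.84 to -0.48. CELSR1 had the highest adjusted p, 0.0277 (limma), without DMSO replicate 3. Genes called with KPT numbered 7831, and 6894 to 8134 in other settings. For Stage 3 with DMSO against Stage 1, 3975 were called higher and 2251 lower, against 2928 higher and 3182 lower after median-ratio rescaling, which moved the median of all genes by -0.10 (log2). Replicate numbers are shared by the groups, but nothing says that a number marks a shared animal or day, and same-numbered libraries did not deviate together (r from -0.13 to 0.07, none of 18 pairs over 0.1). With the replicate block, 3908 genes were called higher and 3817 lower, and the CELSR1 adjusted p was 0.0102 (limma). SST had 4 to 9 reads per Stage 2 library and 7 to 19 per DMSO library, and those groups overlapped.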
